A study of Mus musculus with 20 samples.

Results

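The unfolded protein response and the integrated stress response were followed through 33 genes in liver RNA from 20 mice. The genes were taken by symbol from a fixed list that was chosen with earlier results of these data known. Every symbol was found among the 22298 genes listed for each liver. Ddit3 is carried by 2 entries, so the list filled 34 entries, and the values given for Ddit3 are those of ENSMUSG00000025408, since the other entry never passed 1 count. All 33 members passed the filter on low counts and were among the 12342 genes tested. They fall into 14 endoplasmic reticulum (ER) chaperones and folding enzymes, 5 genes of ER-associated degradation, 6 stress sensors and transcription factors of the ER, and 8 genes of the ATF4 arm.

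The livers came from male Lepr db/db mice, an obese and diabetic strain without leptin receptor signalling, and all 4 groups share that genotype. An AAV8 vector was injected into the tail vein at 5 weeks of age, with a non-targeting shRNA in the Vec and Vec+BBR groups and 4 shRNAs against Pparg, the gene of the lipid-storage receptor PPARγ, in the shRNA and shRNA+BBR groups. Benzbromarone (BBR), a uricosuric drug, was given by gavage at 25 mg per kg once daily for 4 weeks to the Vec+BBR and shRNA+BBR groups, and the Vec and shRNA groups were given its vehicle, CMC-Na. Livers were collected after a fast of 6 h, with 5 mice per group and 1 library per mouse, and the labels do not say how mice were housed or processed in batches. No untreated mouse without a vector and no lean mouse is among these libraries. The promoter that drives the shRNAs is not given in the sources used here, and each shRNA group rests on 1 vector.

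When client proteins fail to fold in the ER, 3 sensors respond. IRE1 (Ern1) splices the Xbp1 mRNA into the form that encodes an active transcription factor, ATF6 is cut free from its membrane, and PERK (Eif2ak3) phosphorylates eIF2α. The targets of XBP1 and ATF6 are mainly ER chaperones and genes that pull misfolded proteins back to the cytosol for degradation. Phosphorylated eIF2α lowers general translation but favours the translation of ATF4, whose targets include Ddit3 (CHOP), Trib3, Asns, Chac1, Atf3, Sesn2 and Ppp1r15a (GADD34). Hepatocytes secrete much protein and carry a large ER, and these pathways are known there for their ties to fat and glucose metabolism. Activation of the sensors occurs largely by splicing, cleavage and phosphorylation, which gene-level mRNA counts do not measure.

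Total counts lay between 17432903 and 25024094 per library. Pparg checked the labels: it ran from 16.4 to 35.9 CPM (counts scaled to library size with TMM factors) in Vec, from 28.0 to 38.3 in Vec+BBR, from 3.24 to 7.31 in shRNA and from 7.19 to 21.8 in shRNA+BBR. Its log2 fold change was -2.12 ± 0.28 (SE) for shRNA against Vec and -1.20 ± 0.26 for shRNA+BBR against Vec+BBR (edgeR's quasi-likelihood test, adjusted p = 4.47e-05 and 0.00843). Hepatocyte markers were abundant in all livers: 8 genes summed to between 130798 and 162463 CPM in Vec, 92481 and 127794 in Vec+BBR, 119071 and 133960 in shRNA and 109651 and 123986 in shRNA+BBR. Every Vec+BBR liver lay below every Vec liver in this sum, and its part in the members' differences was not tested. In bulk liver, fewer cells of a type and less RNA per cell cannot be told apart. Some libraries stood apart: shRNA+BBR 4 had 128 CPM over 10 B cell and plasma cell markers, against 1.25 to 7.72 over the 3 other groups, and Vec 3 and Vec 5 had 130 and 34.1 CPM of the lipid droplet gene Cidec against 5.59 to 6.95 in the other Vec livers. The share of counts on mitochondrial genes ran from 9.14% to 16.2% and was highest in shRNA+BBR, where its median was 12.7%.

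Promoter sequences are shown because XBP1, ATF6 and ATF4 are known to act through short elements near the start of their targets. The ER stress response element (ERSE) holds CCAAT and CCACG with 9 bases between them, and its ERSE-II form holds ATTGG and CCACG with 1 base between them. The C/EBP-ATF response element (CARE), through which ATF4 acts, was searched as TGATGNAA, and the unfolded protein response element (UPRE) as TGACGTGG, all on both strands. Windows from 250 bases before the start to 50 bases from the start on were available from RefSeq (GRCm38.p6) for 30 members, and Manf, Hyou1 and Atf6 had none. An exact ERSE was found in 9 of the 30 (Hspa5, Hsp90b1, Calr, Canx, Pdia6, Dnajc3, Creld2, Syvn1 and Derl3), against 0.137% of the 27025 gene symbols with a window. ERSE-II was found in Herpud1 and Dnajb11 (0.0444% of symbols), CARE in Herpud1, Atf3, Trib3, Asns and Chac1 (4.51% of symbols) and UPRE in 0 of 30 (0.714% of symbols). No overlap between matches of different elements occurred in the members. The lines below give 120 bases each, 5′ to 3′ on the gene's strand, for the members that the results turn on and for Chac1 as an example of CARE, with the element in capitals. Creld2, Calr and Derl3 carry the ERSE, and Chac1 the CARE, in reverse orientation, so the letters shown are the reverse complement. Pdia4 and Creb3l2 are shown because none of these elements was found in their windows.
Hspa5, chr2:34771970-34772089, plus strand: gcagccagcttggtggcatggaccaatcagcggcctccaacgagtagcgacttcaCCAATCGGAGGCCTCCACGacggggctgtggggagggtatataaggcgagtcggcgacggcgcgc
Canx, chr11:50325749-50325868, minus strand: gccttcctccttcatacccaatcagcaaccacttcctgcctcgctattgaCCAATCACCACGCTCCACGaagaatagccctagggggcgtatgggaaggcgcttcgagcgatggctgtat
Creld2, chr15:88819470-88819589, plus strand: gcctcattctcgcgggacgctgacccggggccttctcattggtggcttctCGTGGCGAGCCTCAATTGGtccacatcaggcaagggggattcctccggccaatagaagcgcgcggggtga
Calr, chr8:84847024-84847143, minus strand: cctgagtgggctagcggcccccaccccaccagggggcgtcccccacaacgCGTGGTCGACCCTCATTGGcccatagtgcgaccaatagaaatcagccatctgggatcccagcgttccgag
Derl3, chr10:75893192-75893311, plus strand: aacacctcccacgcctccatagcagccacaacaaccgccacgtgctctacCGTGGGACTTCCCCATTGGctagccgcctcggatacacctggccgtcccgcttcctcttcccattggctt
Herpud1, chr8:94386309-94386428, plus strand: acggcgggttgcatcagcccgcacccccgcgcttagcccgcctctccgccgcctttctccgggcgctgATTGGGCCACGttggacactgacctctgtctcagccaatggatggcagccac
Pdia4, chr6:47813513-47813632, minus strand: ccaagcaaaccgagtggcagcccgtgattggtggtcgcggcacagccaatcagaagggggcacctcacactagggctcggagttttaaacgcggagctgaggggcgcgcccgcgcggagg
Creb3l2, chr6:37442149-37442268, minus strand: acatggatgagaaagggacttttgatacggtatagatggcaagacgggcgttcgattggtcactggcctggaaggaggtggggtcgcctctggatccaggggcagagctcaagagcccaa
Chac1, chr2:119350993-119351112, plus strand: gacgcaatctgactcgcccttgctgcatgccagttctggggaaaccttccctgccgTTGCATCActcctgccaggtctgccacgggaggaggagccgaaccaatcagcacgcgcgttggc

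On the length-corrected scale (FPKM, which divides by library size and transcript length), the members of Vec livers ran from Herpud1 at 312, a scaffold of the degradation complex, to Asns at 0.221, asparagine synthetase. After Herpud1 came Calr (212), the lectin chaperone calreticulin, then Creb3l3 (113), a liver-enriched membrane-bound transcription factor, Pdia6 (93.3), Hspa5 (84.1) and Pdia3 (75.7). The ATF4 arm was low apart from Atf4 itself at 31.5 FPKM: its other 7 members lay between 0.221 (Asns) and 4.45 (Trib3). Of the sensors, Atf6 stood at 6.72, Ern1 at 3.57 and Eif2ak3 at 1.94, while Xbp1 stood at 47.1. Of the 32 pairs of neighbours in this order, 28 had overlapping ranges over the 5 mice. The 4 that did not overlap were Calr above Creb3l3, Hsp90b1 above Xbp1, Canx above Atf4 and Ddit3 above Eif2ak3.

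**Figure D1:**
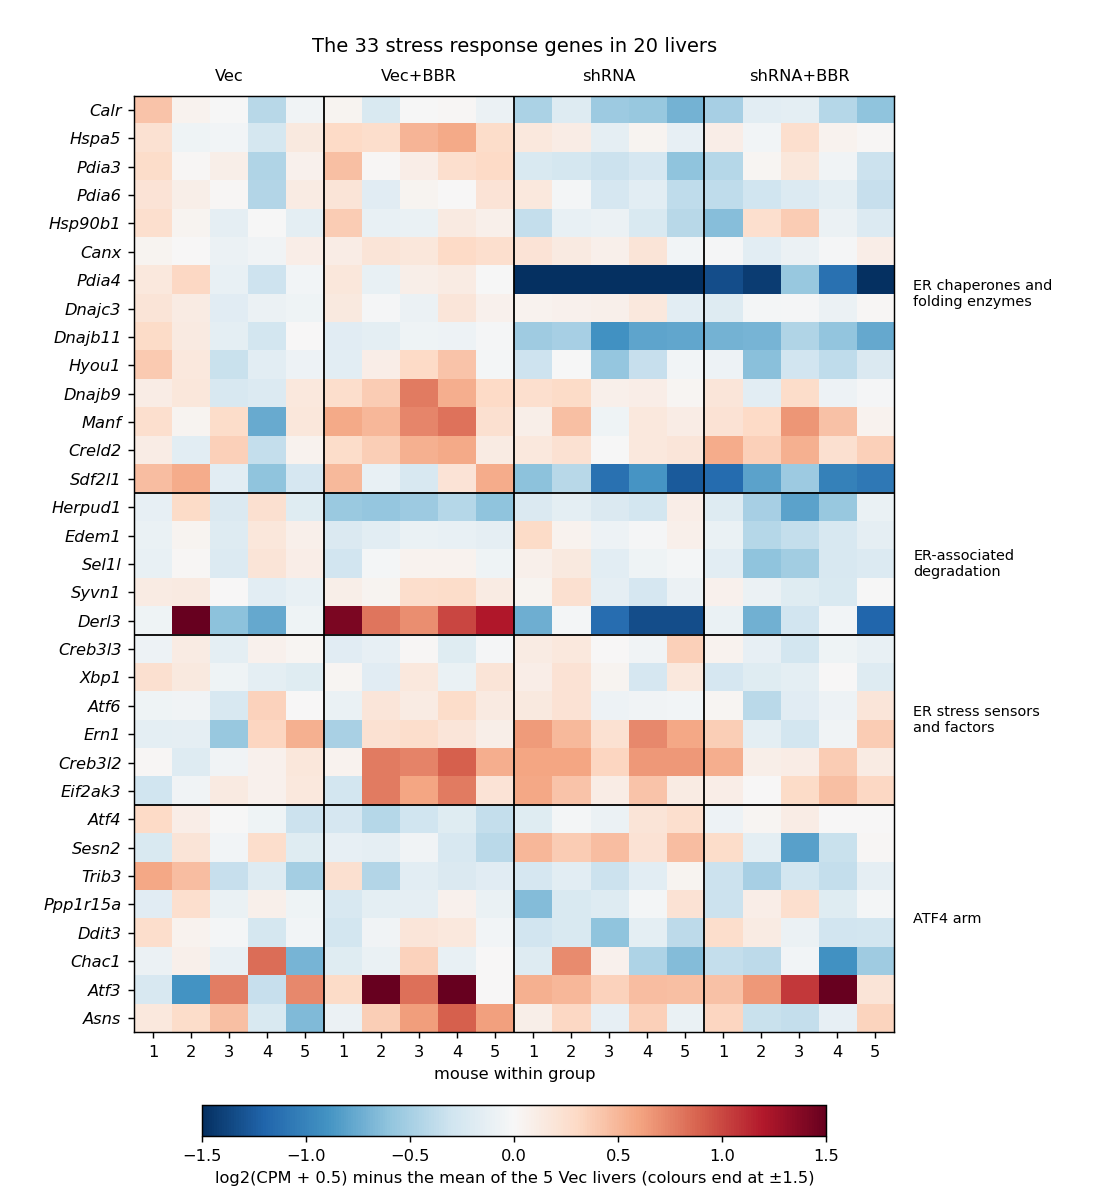
Heat map of the 33 members (rows, grouped by role and ordered by their Vec level) in 20 livers (columns, 5 mice per group), as log2(CPM + 0.5) minus the mean of the 5 Vec livers, with colours ending at ±1.5. Pdia4 is blue in all 10 livers with the Pparg shRNAs. Derl3 in Vec and Atf3 in Vec, Vec+BBR and shRNA+BBR vary widely between mice, while Atf3 is even in shRNA (2.5 to 2.92 CPM).

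With BBR in livers that carried the control vector, a subset of ER chaperones rose, while members fell no more often than all tested genes. Of the 33 members, 6 were higher with BBR under this vector, against 7.58% of all tested genes. Herpud1 and Atf4 were lower, 2 of 33, against 7.88% (adjusted p under 0.05 over all tested genes). The 6 were Hspa5, Canx, Dnajb9, Creld2, Manf and Creb3l2, so 5 of the 14 chaperones and folding enzymes and 1 of the 6 sensors and factors. The calls on Canx, Creld2, Manf and Atf4 were each lost under at least 1 alternative fit. Those on Hspa5, Dnajb9, Creb3l2 and Herpud1 held under all of them. The median log2 fold change was 0.06 over the 33 members and 0.14 over the 14 chaperones, with a median of -0.005 over all tested genes. Of the 9 promoters with an ERSE, those of Hspa5, Canx and Creld2 belong to genes that rose, and the other 6 to genes that did not pass the threshold. Among the 21 members with a window but no ERSE, 2 were higher and 2 lower. With BBR under the Pparg shRNAs, 0 of the 9 passed. The part of the element in these changes was not tested.

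Hspa5 (BiP, ENSMUSG00000026864, chr2:34771970-34777547) is the main ATP-driven chaperone of the ER and keeps the sensors inactive when bound to them. Its level in mice 1 to 5 was 279, 229, 232, 198 and 263 CPM in Vec and 294, 287, 339, 355 and 289 CPM in Vec+BBR. Each Vec+BBR liver lay above every Vec liver. The log2 fold change was 0.38 ± 0.10 (SE), 1.30-fold, with an adjusted p of 0.012 (edgeR), and the call held under every alternative. In shRNA livers Hspa5 stood at 266, 257, 217, 245 and 219 CPM and in shRNA+BBR at 255, 231, 285, 247 and 242, so those groups overlapped (log2 fold change 0.07, 95% interval -0.14 to 0.27).

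Dnajb9 (ERdj4, ENSMUSG00000014905, chr12:44205559-44210326), a co-chaperone of BiP and a typical XBP1 target, stood at 39.1, 41.0, 30.6, 31.4 and 40.6 CPM in Vec and at 43.7, 47.3, 62.6, 53.2 and 44.7 in Vec+BBR. No Vec+BBR liver was as low as the highest Vec liver. Its log2 fold change was 0.46 ± 0.11 (adjusted p = 0.00946, edgeR). With the Pparg shRNAs it measured 43.2, 44.4, 38.3, 38.9 and 37.0 CPM without BBR and 41.3, 32.3, 44.1, 34.3 and 35.7 with it, and the groups overlapped (log2 fold change -0.10, 95% interval -0.34 to 0.13).

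Manf, a secreted ER stress protein, was measured at 31.5, 27.3, 32.2, 15.5 and 29.9 CPM in Vec and at 39.4, 37.6, 44.4, 46.8 and 31.4 in Vec+BBR. Only the fifth Vec+BBR liver fell within the Vec range. This gave a log2 fold change of 0.55 ± 0.16 (adjusted p = 0.0253, edgeR), and the adjusted p passed 0.05 without Vec 2 (0.051), Vec+BBR 3 (0.0602) or Vec+BBR 4 (0.0724). Creld2, an ER-resident protein induced by stress, stood at 10.5, 8.61, 12.5, 7.45 and 10.1 CPM in Vec and at 11.8, 12.7, 14.3, 14.6 and 10.6 in Vec+BBR, with overlap. Its log2 fold change was 0.38 ± 0.12 (adjusted p = 0.0369, edgeR). In edgeR this call was lost without Vec 1 (adjusted p = 0.0625), Vec 2 (0.0999), Vec 4 (0.0915), Vec+BBR 2 (0.071), Vec+BBR 3 (0.09) or Vec+BBR 4 (0.101).

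Canx, the membrane-bound lectin chaperone calnexin, had the smallest change of the 6. It measured 173, 169, 158, 163 and 180 CPM in Vec and 182, 192, 190, 208 and 200 in Vec+BBR, with no overlap. edgeR put the log2 fold change at 0.21 ± 0.07 and its adjusted p of 0.0491 (edgeR) lay at the threshold: it was lost in 16 of the 20 fits that left out 1 mouse, all but those without Vec 5, Vec+BBR 1, shRNA 5 or shRNA+BBR 5, up to an adjusted p of 0.125. The Canx call was also lost with DESeq2's size factors, with no filter, with the replicate block, with only the 2 groups and with mitochondrial genes left out. The other 9 chaperones did not pass, with log2 fold changes from -0.11 (Dnajb11) to 0.21 (Pdia3). Hsp90b1 (GRP94) had a 95% interval of -0.22 to 0.39, and Pdia4 one of -0.30 to 0.38.

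Herpud1 (ENSMUSG00000031770, chr8:94386438-94395377), the most abundant member per length, went the opposite way. Its levels were 574, 763, 538, 736 and 552 CPM in Vec and 426, 417, 429, 466 and 412 CPM in Vec+BBR. Every Vec+BBR liver lay below every Vec liver, and their spread was small. The fitted log2 fold change was -0.56 ± 0.13 (adjusted p = 0.00562, edgeR), and the call held under every alternative. Its promoter holds both an ERSE-II, in capitals above, and a CARE. With the Pparg shRNAs, Herpud1 stood at 537, 565, 539, 518 and 669 CPM without BBR and at 545, 443, 358, 423 and 586 with it, a log2 fold change of -0.26 ± 0.13 that did not pass (adjusted p = 0.146, edgeR).

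The remaining degradation genes did not pass in this comparison: Edem1, a mannosidase-like protein that picks misfolded glycoproteins, had a log2 fold change of -0.15, Sel1l and Syvn1, the core of the ER ubiquitin ligase, had -0.05 and 0.16, and Derl3, a derlin of the retrotranslocation channel, had 1.08 ± 0.55 (adjusted p = 0.196, edgeR). Derl3 was near the detection limit, which 3 counts set at 0.120 to 0.172 CPM. It stood at 0.802, 3.41, 0.392, 0.304 and 0.801 CPM in Vec and at 3.12, 1.88, 1.71, 2.23 and 2.64 in Vec+BBR. Vec 2 alone was above all Vec+BBR livers, and without it the log2 fold change of Derl3 was 1.99 and passed (adjusted p = 0.0183, edgeR).

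Among the sensors and factors, Creb3l2 (BBF2H7, ENSMUSG00000038648, chr6:37327255-37442146), a membrane-bound factor known for widening the secretory pathway, rose. It stood at 9.12, 7.84, 8.68, 9.43 and 10.2 CPM in Vec and at 9.41, 15.8, 15.4, 17.2 and 13.4 in Vec+BBR. The mouse Vec+BBR 1 sat among the Vec livers and the other 4 above them. The log2 fold change was 0.65 ± 0.14 (adjusted p = 0.00322, edgeR), and the call held under every alternative. Eif2ak3 (PERK) had the same low mouse: 6.91, 8.29, 9.51, 9.02 and 9.70 CPM in Vec against 7.01, 15.2, 13.2, 15.2 and 9.98 in Vec+BBR, a log2 fold change of 0.48 ± 0.17 that missed the threshold (adjusted p = 0.061, edgeR). Without Vec+BBR 1 the log2 fold change of Eif2ak3 was 0.62 and passed (adjusted p = 0.00644, edgeR). Vec+BBR 1 also had the lowest Ern1 of its group and a mitochondrial share of 13.8%, the highest among Vec+BBR livers, and the part of that share in the result was not tested. Xbp1, Ern1, Atf6 and Creb3l3 had log2 fold changes from -0.10 to 0.12.

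In the ATF4 arm, Atf4 itself was lower with BBR. It measured 70.2, 61.0, 56.7, 54.6 and 45.6 CPM in Vec and 48.0, 42.3, 46.4, 50.4 and 44.4 in Vec+BBR. The groups overlapped through Vec 5. Its log2 fold change was -0.32 ± 0.10 (adjusted p = 0.0376, edgeR), and the call was lost without Vec 1 (0.111), Vec 2 (0.0809), Vec+BBR 2 (0.0843), Vec+BBR 3 (0.0672) or Vec+BBR 5 (0.0773). ATF4 is controlled mainly at translation, so its mRNA is only part of its regulation. No target of the arm passed: Ddit3, the gene of CHOP, had a log2 fold change of -0.01 with a 95% interval of -0.34 to 0.32, Trib3 -0.21 (-0.59 to 0.18), Chac1 -0.10 (-0.76 to 0.56), Sesn2 -0.21 (-0.52 to 0.11) and Ppp1r15a -0.12 (-0.42 to 0.18). Atf3 and Asns had positive values of 0.94 ± 0.38 and 0.84 ± 0.42 at low levels (adjusted p = 0.1 and 0.177, edgeR). Atf3 lay between 0.771 and 3.53 CPM in Vec and between 1.88 and 6.45 in Vec+BBR.

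**Figure D2:**
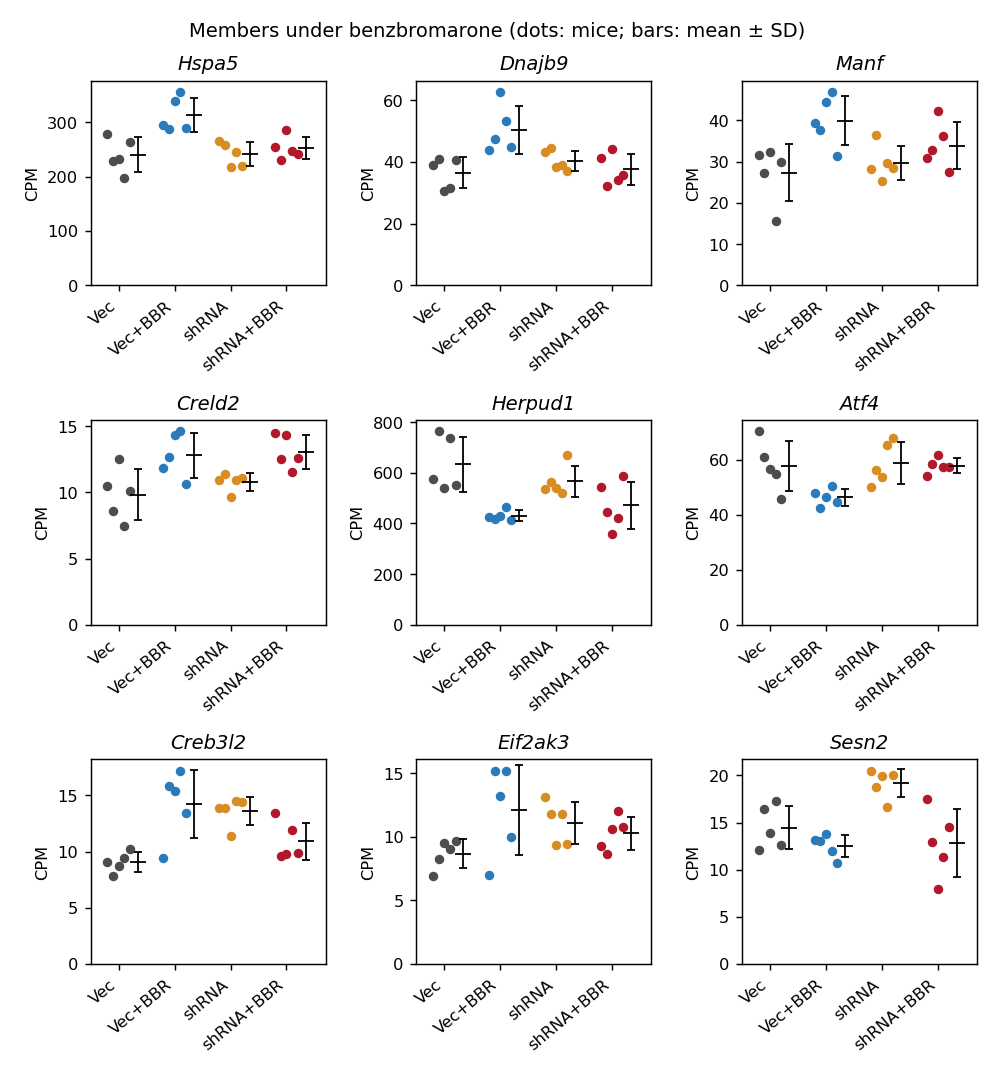
CPM of 9 members in the 4 groups (dots, 5 mice each, with mean ± SD beside them, axes from 0). Hspa5, Dnajb9 and Herpud1 show no overlap between Vec and Vec+BBR, and Creb3l2 and Eif2ak3 share 1 low Vec+BBR liver.

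With BBR in livers that carried the Pparg shRNAs, calls on members were near or below the share of all tested genes. The members called were others than under the control vector. Pdia4 was higher, 1 of 33 against 8.37% of all tested genes, and Edem1, Sel1l and Sesn2 were lower, 3 of 33 against 7.28%. The median log2 fold change was -0.10 over the members and 0.008 over all tested genes. None of the 6 genes that rose with BBR under the control vector passed here, and their values differed in sign. Creld2 had a log2 fold change of 0.28 (95% interval 0.03 to 0.53, adjusted p = 0.105, edgeR) without overlap. It ran from 9.66 to 11.4 CPM in shRNA and from 11.5 to 14.5 in shRNA+BBR. Manf had 0.20 (-0.14 to 0.53), from 25.2 to 36.3 CPM in shRNA and from 27.4 to 42.2 in shRNA+BBR. Hspa5 had 0.07, Dnajb9 -0.10, Canx -0.16 and Creb3l2 -0.32.

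Pdia4 (ERp72, ENSMUSG00000025823, chr6:47796141-47813430) is a disulfide isomerase that helps secreted proteins to form disulfide bonds. It stood at 36.5, 37.9, 32.1, 21.6 and 31.9 CPM in shRNA and at 46.9, 44.0, 79.8, 54.5 and 40 in shRNA+BBR. All shRNA+BBR livers lay above all shRNA livers, with mouse 3 well above the rest. This gave a log2 fold change of 0.73 ± 0.17 (adjusted p = 0.00998, edgeR), and the call held under every alternative. The mouse shRNA+BBR 3 also had the highest Pparg of the 10 shRNA livers (21.8 CPM) and shRNA 4 the lowest (3.24 CPM), the same mice as for Pdia4, and the part of remaining Pparg in the Pdia4 level was not tested.

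Edem1 stood at 150, 128, 117, 122 and 130 CPM in shRNA and at 115, 91.5, 96.0, 104 and 112 in shRNA+BBR, and Sel1l at 130, 136, 110, 118 and 121 against 110, 81.0, 85.9, 104 and 107. The groups did not overlap for either gene, although for Sel1l the nearest livers were both close to 110 CPM. The log2 fold changes were -0.32 ± 0.08 and -0.33 ± 0.10 (adjusted p = 0.0176 and 0.0304, edgeR). The Edem1 call was lost without shRNA 1 (0.0514), shRNA+BBR 2 (0.0516) or shRNA+BBR 3 (0.0589), and that of Sel1l without shRNA 1 (0.0646), shRNA 2 (0.0719), shRNA 5 (0.0521), shRNA+BBR 2 (0.0833) or shRNA+BBR 3 (0.0935). The mice shRNA+BBR 2 and 3 had the lowest levels of both genes and also the highest mitochondrial shares of the 20 livers. With mitochondrial genes left out of the table, an alternative chosen after seeing the data, both calls held. That fit keeps the same livers, so it cannot separate the calls from the mitochondrial share. The part of that share in these levels was not tested.

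Sesn2, a stress-induced inhibitor of mTORC1 signalling, measured 20.5, 18.8, 19.9, 16.7 and 20 CPM in shRNA and 17.5, 12.9, 7.96, 11.3 and 14.5 in shRNA+BBR. Only shRNA+BBR 1 reached the shRNA range. edgeR put the log2 fold change at -0.58 ± 0.15 (adjusted p = 0.0166), and the call held under every alternative. In Vec livers it stood at 12.1, 16.4, 13.9, 17.3 and 12.6 CPM and in Vec+BBR at 13.1, 13.0, 13.8, 12 and 10.7. The other ATF4 targets had log2 fold changes from -0.49 (Chac1) to 0.51 (Atf3) without a call, and Atf4 had -0.02 with a 95% interval of -0.23 to 0.19. All 6 sensors and factors had negative values, from -0.12 to -0.46, and 0 of 6 passed with edgeR, against 4 of 6 at an unadjusted p under 0.05 and 1 of 6, Creb3l3, with DESeq2. No share of all tested genes was counted at an unadjusted p or with DESeq2.

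The BBR effects under the 2 vectors share no mice, so their difference could be tested as an interaction. Creb3l2 was the 1 member of 33 that passed, against 0.146% of all tested genes. With BBR it was 0.65 higher on the log2 scale under the control vector and had -0.32 ± 0.13 under the Pparg shRNAs (adjusted p = 0.104, edgeR), a difference of -0.97 ± 0.19 with a 95% interval of -1.37 to -0.57 (adjusted p = 0.0407, edgeR). Creb3l2 stood at 13.9, 13.9, 11.4, 14.5 and 14.4 CPM in shRNA and at 13.4, 9.65, 9.76, 11.9 and 9.88 in shRNA+BBR. So the vehicle livers with the shRNAs were above all vehicle livers with the control vector, and BBR went with a higher level in one pair of groups and not in the other. This call depended on most single mice: it was lost in 13 of the 20 fits that left out 1 mouse, all but those without Vec 4, Vec 5, Vec+BBR 1, shRNA 3 or shRNA+BBR 1, 4 or 5, with adjusted p up to 0.0895, while the difference stayed between -1.07 and -0.89 over all alternatives.

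Several chaperones had differences of the same sign that missed the threshold in this test. Dnajb9 had -0.57 ± 0.16 (adjusted p = 0.104), Canx -0.36 ± 0.10 (adjusted p = 0.102) and Hspa5 -0.31 ± 0.14 (adjusted p = 0.233), all by edgeR, while Pdia4 had 0.69 ± 0.23 (adjusted p = 0.145). With DESeq2, Dnajb9 and Canx passed (adjusted p = 0.0407 and 0.0092), but each was over the threshold in 25 of the 26 alternatives. Those 25 are all edgeR fits, 20 of them without 1 mouse, so they repeat 1 method. DESeq2 called 334 genes for this difference, against 18 with edgeR. A difference between the vectors was therefore not established for Dnajb9, Canx, Hspa5, Pdia4, Manf or Creld2. The 95% intervals were -0.60 to -0.03 for Hspa5, -0.83 to 0.12 for Manf and -0.45 to 0.25 for Creld2.

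**Figure D3:**
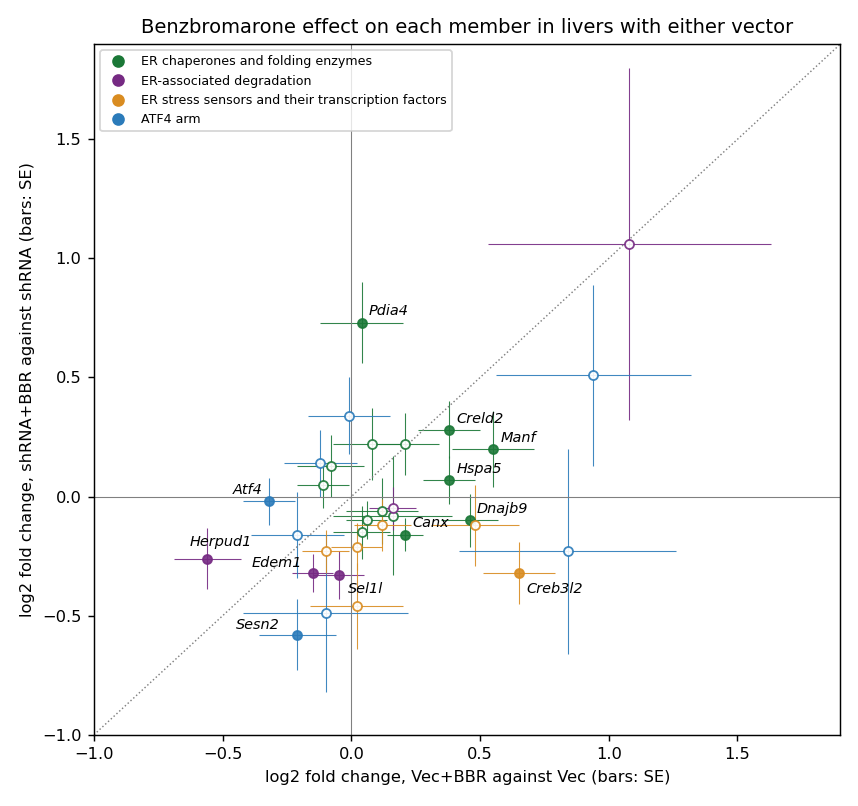
Log2 fold change with BBR under the control vector (x axis) and under the Pparg shRNAs (y axis) for each member, with bars of 1 SE. Filled points passed the threshold in at least 1 of the 2 comparisons. Creb3l2 lies at 0.65 and -0.32, Pdia4 at 0.04 and 0.73, and the dotted line marks equal effects.

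Without BBR, knockdown of Pparg went with lower levels of a few folding enzymes, of which Pdia4 had the smallest adjusted p. Of the 33 members, 4 were lower in shRNA than in Vec (Pdia4, Sdf2l1, Dnajb11 and Calr, all chaperones or folding enzymes), against 7.91% of all tested genes, and 1 was higher (Creb3l2), against 5.28%. The median log2 fold change was 0.00 over the members and -0.19 over the 14 chaperones, with -0.009 over all tested genes. This comparison shares the Vec livers with the BBR comparison above.

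Pdia4 stood at 133, 147, 110, 95.4 and 115 CPM in Vec, against 21.6 to 37.9 CPM in the shRNA livers given above. Every Vec liver lay far above every shRNA liver. The fitted log2 fold change was -1.91 ± 0.17, 0.266-fold, with an adjusted p of 9.71e-07 (edgeR), the 4th smallest of the 12342 genes tested, and it stayed between -1.98 and -1.80 under all alternatives. Under BBR the same gene stood at 134, 110, 126, 129 and 118 CPM in Vec+BBR, above every shRNA+BBR liver. That log2 fold change was -1.22 ± 0.17 (adjusted p = 0.000301, edgeR), the 14th smallest.

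Dnajb11 (ERdj3, ENSMUSG00000004460, chr16:22857845-22879634), a soluble co-chaperone of BiP, followed at 59.9, 54.2, 44.2, 40.6 and 49.3 CPM in Vec and 33.9, 34.6, 26.0, 28.1 and 28.5 in shRNA. The groups did not overlap. The log2 fold change was -0.72 ± 0.10 (adjusted p = 9.43e-05, edgeR). Under BBR it was measured at 43.7, 44.2, 46.9, 46.8 and 48.6 CPM with the control vector and at 29.8, 30.1, 35.7, 32.5 and 28.7 with the shRNAs, again without overlap, a log2 fold change of -0.55 ± 0.10 (adjusted p = 0.00261, edgeR). Both calls held under every alternative.

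Sdf2l1 (ENSMUSG00000022769, chr16:17130138-17132383) encodes a partner of ERdj3 and BiP in the ER. It stood at 7.87, 8.48, 4.95, 3.50 and 4.62 CPM in Vec and at 3.47, 4.07, 2.30, 2.80 and 2.04 in shRNA, where shRNA 2 reached into the Vec range. Under BBR the levels were 8.04, 5.15, 4.66, 6.52 and 8.43 with the control vector and 2.23, 2.98, 3.69, 2.51 and 2.40 with the shRNAs, and these groups did not overlap. The log2 fold changes were -1.01 ± 0.25 and -1.24 ± 0.24 (adjusted p = 0.00967 and 0.00436, edgeR), and both calls held under every alternative.

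Calr (ENSMUSG00000003814, chr8:84841850-84846934) measured 650, 501, 481, 362 and 466 CPM in Vec and 348, 422, 330, 325 and 296 in shRNA, with overlap through Vec 4. Its log2 fold change was -0.51 ± 0.13 (adjusted p = 0.012, edgeR). Under BBR the values were 499, 412, 482, 488 and 454 CPM against 342, 433, 436, 358 and 317, a log2 fold change of -0.31 ± 0.13 that did not pass (adjusted p = 0.146, edgeR). Hspa5 had a log2 fold change of 0.00 for shRNA against Vec, with a 95% interval of -0.20 to 0.21. For shRNA+BBR against Vec+BBR it had -0.31 ± 0.10, and each shRNA+BBR liver lay below every Vec+BBR liver (adjusted p = 0.0526, edgeR, and 0.0258, DESeq2).

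Creb3l2 was the member higher in shRNA than in Vec, with a log2 fold change of 0.59 ± 0.14 and no overlap (adjusted p = 0.00682, edgeR). The other 5 sensors and factors also had positive values, from 0.03 (Atf6) to 0.49 (Ern1), without a call. In the ATF4 arm 0 of 8 passed with edgeR and 0 with DESeq2, against 2 at an unadjusted p under 0.05, Sesn2 at 0.41 ± 0.15 and Ddit3 at -0.40 ± 0.16. Derl3 lay at 0.32, 0.837, 0.121, 0.0438 and 0.0417 CPM in shRNA, down to 1 count in a library. Its log2 fold change of -2.10 ± 0.70 sat at the threshold (adjusted p = 0.0503, edgeR, and 0.0175 with DESeq2). Single livers moved this value: it was -3.03 without shRNA 2 (adjusted p = 0.0132, edgeR) and -1.17 without Vec 2 (adjusted p = 0.241).

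Under BBR, 6 of the 33 members were lower with the shRNAs, against 4.82% of all tested genes: Pdia4, Sdf2l1, Dnajb11, Canx, Dnajb9 and Derl3. With DESeq2 8 were lower, Hspa5 and Hyou1 being added, and 15 were lower at an unadjusted p under 0.05. The share of all tested genes was not counted with DESeq2 or at an unadjusted p, so neither count has a background to be read against. None was higher with edgeR, against 3.31% of all tested genes, with 1 at an unadjusted p under 0.05 and 1 with DESeq2. That member was Atf4, with a log2 fold change of 0.32 ± 0.10 and no overlap, at 54.0, 58.2, 61.8, 57.3 and 57.3 CPM in shRNA+BBR (adjusted p = 0.0538, edgeR, and 0.0263, DESeq2). The median log2 fold change was -0.24 over the members and -0.32 over the chaperones, beside -0.004 over all tested genes. Of the 14 chaperones 13 had negative values and 5 passed. They were measured in the same livers, and no share of negative values was counted over all tested genes. Both this comparison and that of Vec+BBR against Vec use the Vec+BBR livers.

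Dnajb9 had a log2 fold change of -0.42 ± 0.11 (adjusted p = 0.0251, edgeR), which was lost without Vec+BBR 3 (0.0802), Vec+BBR 4 (0.0611), shRNA+BBR 2 (0.0881), shRNA+BBR 4 (0.0514) or shRNA+BBR 5 (0.0563). Canx measured 166, 151, 158, 167 and 180 CPM in shRNA+BBR, all below the Vec+BBR livers, with -0.24 ± 0.07 (adjusted p = 0.0335, edgeR), and lost its call in 8 of the 20 fits without 1 mouse, those without Vec+BBR 2, 3, 4 or 5, shRNA 3 or shRNA+BBR 1, 2 or 3, with adjusted p up to 0.112. That Canx call was lost also with no filter, with the replicate block and with only the 2 groups. Derl3 stood at 0.775, 0.331, 0.616, 0.822 and 0.0978 CPM in shRNA+BBR, all below the Vec+BBR livers. Its fitted change was a log2 value of -2.12 ± 0.59 (adjusted p = 0.0296, edgeR), which was lost in 7 of those fits, with adjusted p between 0.0502 and 0.0819, without Vec+BBR 1, 2, 4 or 5 or shRNA+BBR 2, 3 or 5. Derl3 is abundant in antibody-secreting cells. The library with 128 CPM of B cell and plasma cell markers, shRNA+BBR 4, had 0.822 CPM of Derl3, the highest of its group, and the part of such cells in the result was not tested.

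The members that passed no comparison with edgeR in the model of all livers are given by their group means (n = 5). With DESeq2, Hyou1 passed for shRNA+BBR against Vec+BBR and Creb3l3 for shRNA+BBR against shRNA (adjusted p = 0.0378 and 0.0387). Mean levels in Vec, Vec+BBR, shRNA and shRNA+BBR, in that order, were 198, 210, 168 and 195 CPM for Hsp90b1, 222, 258, 175 and 204 for the glycoprotein disulfide isomerase Pdia3, and 211, 217, 192 and 173 for its relative Pdia6. Dnajc3, a co-chaperone of BiP, had means of 85.8, 89.2, 88 and 81.9 CPM and Hyou1, an HSP110-type ER chaperone, 48.1, 52.3, 39.9 and 38.3. Hyou1 had negative log2 values in both knockdown comparisons, -0.27 ± 0.14 and -0.45 ± 0.14 (adjusted p = 0.228 and 0.0575, edgeR). Syvn1 had means of 35.4, 39.6, 34.5 and 33.2 CPM, Xbp1 99.8, 101, 103 and 89.1, Atf6 51.3, 55.7, 52.5 and 48.3, Ern1 24.4, 24.9, 34.5 and 25, and Creb3l3 274, 256, 298 and 254. Ern1 and Creb3l3 thus had their highest means in shRNA, without a call against Vec. Eif2ak3 had means of 8.69, 12.1, 11.1 and 10.2 CPM. Its difference between the BBR effects was -0.60 ± 0.24 on the log2 scale (adjusted p = 0.204, edgeR). In the ATF4 arm the means were 2.98, 2.96, 2.26 and 2.87 CPM for Ddit3, 9.64, 8.33, 8.15 and 7.29 for the pseudokinase Trib3, 2.22, 2.07, 2.02 and 1.42 for Chac1, which breaks down glutathione, and 9.25, 8.5, 8.25 and 9.08 for Ppp1r15a, which directs dephosphorylation of eIF2α. Asns had means of 0.475, 0.849, 0.522 and 0.443 CPM and Atf3 2.11, 4.13, 2.76 and 3.92, with SDs of 0.161 to 2.12 for Atf3.

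**Figure D4:**
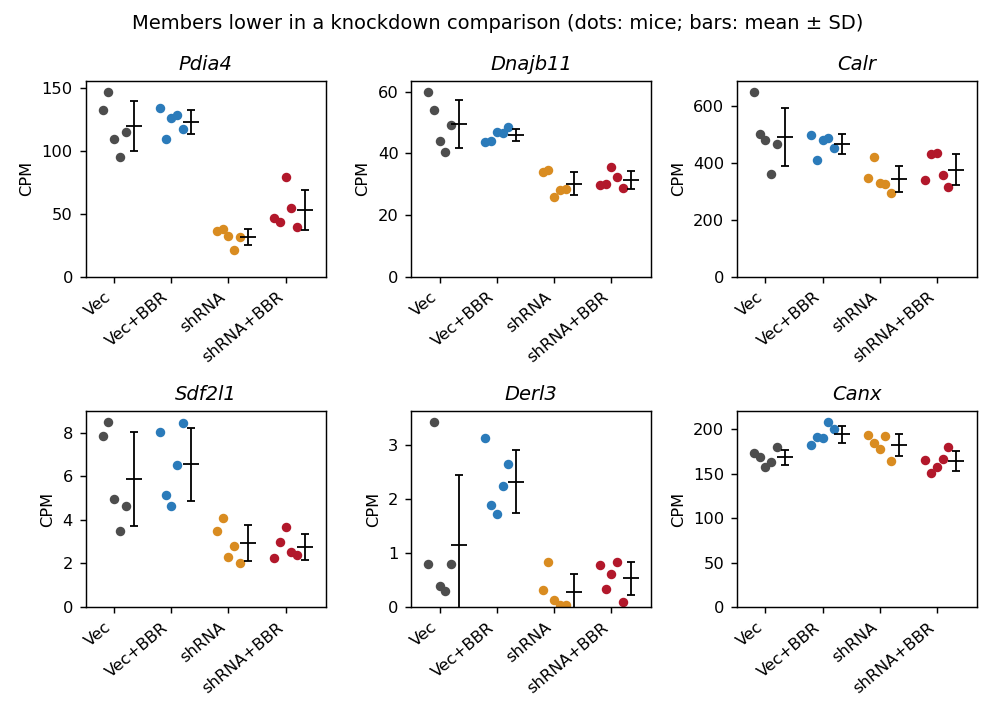
CPM of 6 members that were lower with the Pparg shRNAs in at least 1 comparison (dots, 5 mice per group, with mean ± SD beside them, axes from 0). Pdia4 separates the 10 livers with the shRNAs (21.6 to 79.8 CPM) from the 10 without (95.4 to 147 CPM).

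Since Pdia4 was so much lower with the shRNAs, their sequences were compared with the transcripts of 12337 tested genes (GENCODE M21). The lines below give the 4 guide strands, 5′ to 3′ in DNA letters, with bases 2 to 8, the seed, in capitals, and the position of the 21-base target in Pparg transcript Pparg-201 (GRCm38), all in coding sequence.
shRNA1, chr6:115441512-115441532, exon 3: aGAATAATaaggtggagatgc
shRNA2, chr6:115451068-115463091, across exons 4 and 5: tGATGGCAttgtgagacatcc
shRNA3, chr6:115463265-115463285, exon 5: tGATTTGTccgttgtctttcc
shRNA4, chr6:115473195-115473215, exon 6: tAAAGTCAccaaagggcttcc
Each target matched Pparg over all 21 bases and no other tested gene in full. The longest run that Pdia4 shared with any of the 4 targets was 8 bases, which between 49.0% and 69.2% of the genes reached. The seed match of shRNA4 occurs once in Pdia4, at chr6:47796388-47796394 in the 3′ UTR of its last exon, in the stretch tggcaggatctTGACTTTtttttatatttt, where capitals mark the match. Anywhere in a transcript, coding sequence included, a seed match to shRNA4 was present in 43.2% of the genes. The share of genes with such a match in the 3′ UTR was not counted. Of the other members lower with the shRNAs, Dnajb11, Sdf2l1 and Derl3 held no seed match to any of the 4, Calr held one to shRNA2, Canx held matches to shRNA2 and shRNA4, and Dnajb9 held matches to shRNA3 and shRNA4. Seed matches to shRNA2 and shRNA3 were present in 36.8% and 21.3% of the genes. These too were sought over whole transcripts, for the members and for all genes. Dnajb9 also shared a run of 10 bases with the target of shRNA1, which 5.91% of the genes reached. These matches are a description of letters, and whether any shRNA acts on these members was not tested.

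Further genes of the same pathways were read from 13 companion lists. These lists were written with earlier results of these data known, and their counts are read beside the shares of all tested genes called higher and lower. Those were 7.58% and 7.88% for Vec+BBR against Vec and 8.37% and 7.28% for shRNA+BBR against shRNA. They were 5.28% and 7.91% for shRNA against Vec and 3.31% and 4.82% for shRNA+BBR against Vec+BBR. Of 103 calls on companion genes, 45 held under every alternative and 58 were lost under at least 1. Those lost under more alternatives than they held numbered 6: Cebpg and Pdia5 in Vec+BBR against Vec, Mars1 in shRNA against Vec, and Atf6b, Selenos and Herpud2 in shRNA+BBR against shRNA. Of 18 other ER folding enzymes, 5 were lower and 1 higher in shRNA than in Vec. Sil1, the nucleotide exchange factor of BiP, and Pdia5 both had log2 fold changes of -0.62, with SE 0.09 and 0.17, Txndc5 had -0.59 ± 0.10 and Erp29 -0.40 ± 0.10 (adjusted p = 9.13e-05, 0.0177, 0.000696 and 0.0111, edgeR). Under BBR 2 of the 18 were lower with the shRNAs and 1 was higher, and Txndc5, at -0.48 ± 0.10, was again among the lower ones (adjusted p = 0.0078, edgeR), with Uggt1 at -0.27, while Erp44 had 0.36. Txndc5 ran from 140 to 201 CPM in Vec and from 98.8 to 125 in shRNA, without overlap.

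With BBR under the control vector, 5 of these 18 enzymes were lower and 2 higher. Hspa13 and Dnajc10, an HSP70 relative and a disulfide reductase of the ER, had log2 fold changes of 0.46 and 0.44, while Pdia5 and Sil1 had -0.49 and -0.41. In ER-associated degradation, 16 further genes gave 1 higher and 1 lower with BBR under the control vector, Ubxn4 at 0.43 and Os9 at -0.52. These counts lay near the shares of all tested genes, 7.58% and 7.88%. Under the shRNAs 2 were higher and 5 lower, against 8.37% and 7.28%, with Nploc4 at -0.55 and Os9 at -0.54. In shRNA against Vec, Derl2 (-0.44) and Edem2 (-0.35) were lower and Erlec1 (0.32) higher. Os9, a lectin that hands glycoproteins to the SEL1L complex, ran from 209 to 317 CPM in Vec and from 179 to 195 in Vec+BBR.

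Among 13 tested ATF4 targets of amino acid metabolism and transport, 4 were lower and 0 higher in Vec+BBR than in Vec by edgeR, with 6 of 13 at an unadjusted p under 0.05 and 1 higher with DESeq2. Cth, cystathionine gamma-lyase, had -1.17 ± 0.28, Slc38a2 -0.57, Slc3a2 -0.41 and Shmt2 -0.24. Of 12 aminoacyl-tRNA synthetases 1 was lower, Aars at -0.47 ± 0.10 (adjusted p = 0.00273, edgeR), a count near the 7.88% of all tested genes. Under the shRNAs, 0 of the 13 and 0 of the 12 passed with BBR by edgeR or by DESeq2, against 2 and 3 at an unadjusted p under 0.05. The counts here at an unadjusted p or with DESeq2 have no share of all tested genes beside them. Of 13 other ATF4-linked regulators, Nupr1, a stress-induced chromatin protein, rose with BBR under both vectors, by 1.37 ± 0.27 and 0.98 ± 0.28 on the log2 scale (adjusted p = 0.00232 and 0.0276, edgeR), Cebpg had 0.28 (adjusted p = 0.0464, edgeR, over the threshold in 20 of 27 alternatives) and 0.35 (adjusted p = 0.0177), and Atf5 was lower under the control vector, at -0.73 ± 0.15 (adjusted p = 0.00238, edgeR). Nupr1 was measured between 0.558 and 0.707 CPM in Vec and between 1.20 and 2.37 in Vec+BBR.

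Knockdown went with a lower level of Eif2ak1, the haem-regulated eIF2α kinase, at -0.52 ± 0.07 without BBR and -0.41 ± 0.07 with it (adjusted p = 4.99e-05 and 0.00126, edgeR). It was 1 of 10 eIF2 kinases, phosphatase and eIF2B subunits in each case, against 7.91% and 4.82% of all tested genes. It stood between 47.2 and 59.6 CPM in Vec and between 33.8 and 39.0 in shRNA. Ddit4, an mTORC1 inhibitor, was higher with the shRNAs at 0.73 ± 0.23 and 0.91 ± 0.23 (adjusted p = 0.0379 and 0.0174, edgeR). Pck2 had 0.87, Eif4ebp1 -0.37, Shmt2 -0.26 and Mars1 -0.26 for shRNA against Vec, and Slc3a2 0.41 for shRNA+BBR against Vec+BBR, all past the threshold. Of these, Mars1 (adjusted p = 0.0445, edgeR) was over the threshold in 19 of 27 alternatives and Shmt2 (adjusted p = 0.0198) in 5. In the 19 genes of the translocon, signal peptidase and oligosaccharyltransferase, Ostc was higher in shRNA than in Vec (0.74 ± 0.11), Stt3a lower with the shRNAs under BBR (-0.37) and Spcs1 lower in shRNA+BBR than in shRNA (-0.33), and in Vec+BBR against Vec 0 of 19 passed with edgeR, 3 at an unadjusted p under 0.05 and 2 with DESeq2. Of the 5 tested CREB3/ATF6 relatives and proteases, Mbtps2, the site-2 protease that releases ATF6, was higher with the shRNAs (0.70 ± 0.13 and 0.47 ± 0.13), Mbtps1, the site-1 protease, was lower in shRNA than in Vec (-0.28), and Atf6b was lower in shRNA+BBR than in shRNA (-0.38).

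Of the 15 genes of the cytosolic heat shock response, 4 were higher with BBR under the control vector and 6 under the shRNAs, with 0 lower by edgeR or DESeq2 and the remaining 11 and 9 without a call by edgeR. Hspb1 (HSP27) ran from 1.52 to 13.1 CPM in Vec, from 17.9 to 29.0 in Vec+BBR, from 1.36 to 2.70 in shRNA and from 6.36 to 13.0 in shRNA+BBR. Hspb1 had a log2 fold change with BBR of 1.80 ± 0.40 and 2.09 ± 0.45, and with the shRNAs -1.86 ± 0.46 and -1.57 ± 0.40 (adjusted p = 0.00522, 0.00754, 0.00991 and 0.0185, edgeR). Hsp90aa1, the inducible HSP90, had 0.69 and 0.87 with BBR, Chordc1 and Hspa4l 0.51 and 0.52 under the control vector, and Hsph1 and Hspa8 0.76 and 0.63 under the shRNAs. With the shRNAs and no BBR 4 of the 15 were lower (Hspb1, Ahsa1 at -0.31, Hsp90ab1 at -0.27 and Stip1 at -0.25), and with BBR 2 were lower and 1, Dnaja1 at 0.39, was higher. The 9 genes of the mitochondrial unfolded protein response had at most 1 call in each direction per comparison, with Clpx at 0.66 and Clpp at -0.34 for shRNA against Vec, Clpp at -0.35 for Vec+BBR against Vec and Hspa9 at -0.31 for shRNA+BBR against shRNA.

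Of 7 transcripts known to be cut by IRE1, 3 were higher with BBR under the control vector and 2 under the shRNAs. They were Sparc (0.86 and 0.65), Pdgfrb (0.64 and 0.66) and, under the control vector, Col6a1 (0.94), which are genes of stellate and other matrix-forming cells. The summed level of 9 stellate cell markers, one of them Pdgfrb, ran from 243 to 427 CPM in Vec, from 475 to 495 in Vec+BBR, from 333 to 381 in shRNA and from 402 to 526 in shRNA+BBR, and its part in the result was not tested. Bloc1s1, Scara3, Hgsnat and Pmp22 did not pass. Of 8 liver genes linked to CREB3L3, Cidec was higher with BBR under both vectors (2.29 ± 0.63 and 2.71 ± 0.66), Apoa4 under the shRNAs (1.55 ± 0.43), and Hamp, Crp and Apoa5 were lower under the control vector (-1.21, -0.44 and -0.37), while Creb3l3 itself had -0.10 ± 0.09 and -0.23 ± 0.09 without a call by edgeR. Cidec is also a known PPARγ target.

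Markers of other cells and of time were set beside these results. The 6 cholangiocyte markers summed to 24 to 45.4 CPM in Vec and 50.3 to 96.6 in Vec+BBR. Of 12 clock genes, Arntl and Cry1 were higher and Dbp and Nr1d1 lower with the shRNAs, by log2 values of 1.10, 0.52, -1.34 and -1.07 without BBR and 1.57, 1.09, -1.35 and -1.67 with it. Per3 and Cry1 were lower with BBR under the control vector (-0.48 and -0.57), and under the shRNAs Clock was higher (0.49) and Per1, Per3 and Tef lower (-0.57, -0.54 and -0.46). The labels give no time of collection, several ER chaperones are known to cycle over the day in liver, and the part of time or of the mix of cells in the members' differences was not tested. Macrophage markers summed to 179 to 435 CPM in Vec and 239 to 372 in Vec+BBR, with overlap. 3 further sums were low but separated some groups. The 5 adipocyte markers summed to 0.0507 to 0.981 CPM in Vec and 1.16 to 6.31 in Vec+BBR, and to 0 to 0.274 in shRNA and 0.867 to 5.45 in shRNA+BBR, so they were higher with BBR without overlap under both vectors. The 9 pancreatic acinar markers summed to 2.40 to 3.82 CPM in Vec and 4.23 to 6.14 in Vec+BBR, without overlap, and the 7 T cell markers to 1.04 to 2 CPM in Vec+BBR and 2.10 to 6.30 in shRNA+BBR. The part of these sums in the members' differences was not tested. Endothelial markers ran from 86.9 to 119 CPM in Vec and from 122 to 152 in shRNA, and erythroid markers from 388 to 2300 CPM over all livers.

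**Figure D5:**
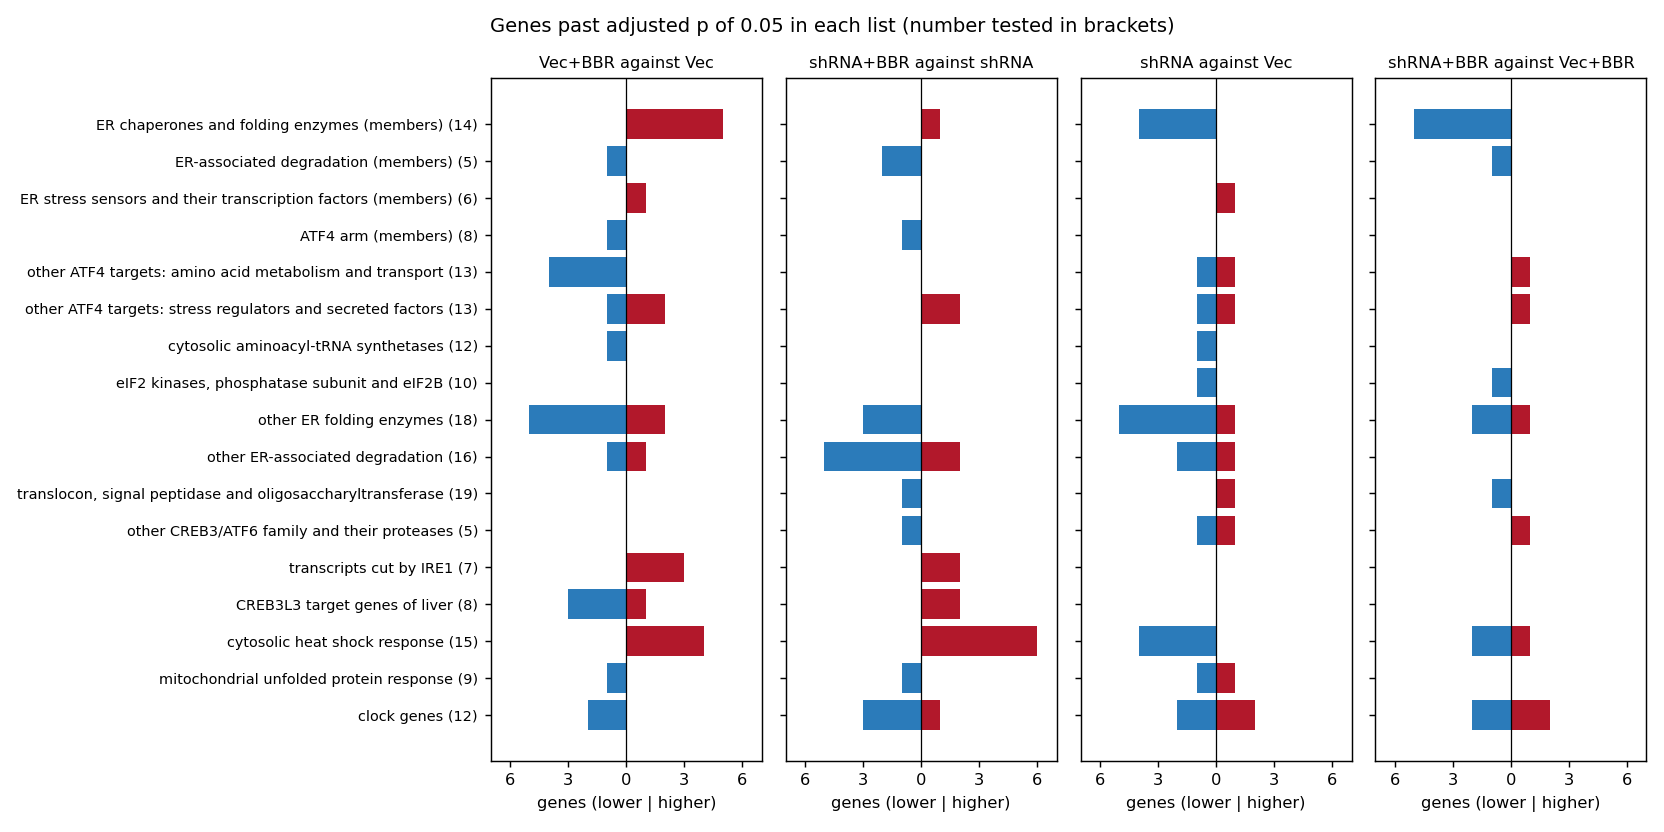
Number of genes past an adjusted p of 0.05 (edgeR) that were higher (red, right) or lower (blue, left) in each of the 4 comparisons, for the 4 roles among the members and the 13 companion lists, with the number tested in brackets. The 14 member chaperones have 5 higher with BBR under the control vector and 4 and 5 lower with the shRNAs, and the heat shock list has 4 and 6 higher with BBR.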

How the data were processed

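Liver polyA RNA from 20 mice, 5 per group, was sequenced to 1 library per mouse (NEBNext Ultra, Novaseq6000). The deposited files give, per gene, the expected counts that the authors made by assigning reads to genes, and the deposited FPKM values, which the authors scaled to library size and gene length. The aligner, counter and annotation are not given in the sources used here, and the submitters' processing notes name the build mm10. Between 91.9% and 93.3% of the deposited expected counts, zeros included, were whole within 1e-06, and all were rounded to whole numbers. Positions and symbols came from GENCODE M21 (GRCm38).

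Genes were filtered with filterByExpr (minimum count 10, total 15), scaled with TMM factors (0.873 to 1.14) and tested with edgeR 4.0.16 (quasi-likelihood, R 4.3.3) in 1 model of 4 group means over all 20 livers. The 4 contrasts and the difference between the BBR effects were tested two-sided, with Benjamini-Hochberg adjustment over all 12342 genes and a threshold of 0.05. Each ± on a log2 fold change is a standard error. It was taken as the absolute log2 fold change over the square root of the quasi-likelihood F statistic. The 95% intervals were built from it. CPM values have TMM scaling. Shares of all tested genes are for edgeR at an adjusted p under 0.05, and none was counted for an unadjusted p, for DESeq2 or for the sign alone. Total counts of 17432903 to 25024094 set a limit of 3 counts at 0.12 to 0.172 CPM, which covers counting error only. Alternatives were DESeq2 1.42.0, its size factors, other filters, a replicate block, the 2 groups alone and each mouse left out. The fit was tested on simulated counts. The 33 members and all lists were chosen with earlier results of these data known. All 33 members are named with their levels, as is Pparg, and of each companion list up to 4 genes with the largest absolute log2 fold change among those past the threshold in the comparison described. Of 40 pairs of libraries within groups, none matched within sampling noise. The labels do not say that replicate numbers pair mice. The labels name the mice as separate samples, and p-values measure the spread between them. Promoter sequences are from RefSeq (GRCm38.p6).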

Additional observations from a re-analysis of the deposited data

Results flagged for a closer look

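In 132 groups of 5 livers (33 members in 4 groups), 4 single livers lay farther from the rest than Dixon's test at the 95% level allows, where chance flags about 5% of groups. Pdia3 stood at 144 CPM in shRNA 5, below 176 to 187 in the other shRNA livers. Derl3 stood at 3.41 CPM in Vec 2, above 0.304 to 0.802 in the other Vec livers. Ern1 stood at 16.7 CPM in Vec+BBR 1, below 25 to 28.3 in the other Vec+BBR livers, and Creb3l2 stood at 11.4 CPM in shRNA 3, below 13.9 to 14.5. Creb3l2 also had a BBR effect that differed between the vectors, with a log2 difference of -0.97 by the interaction test (adjusted p = 0.0407, edgeR).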

How the results depend on the processing

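Of the 24 calls on single members, 14 held under every alternative, 10 were lost under at least 1 and 0 reversed. The cause of each change below was not tested. Apart from fits without 1 mouse, the calls lost were Canx in Vec+BBR against Vec (DESeq2's size factors, no filter, replicate block, only the 2 groups, mitochondrial genes left out), Canx in shRNA+BBR against Vec+BBR and Atf4 in Vec+BBR against Vec (no filter, replicate block, only the 2 groups), Creld2 and Manf in Vec+BBR against Vec (only the 2 groups) and the Creb3l2 difference (replicate block). Differences that had not passed did so most often for Atf4 (12 alternatives) and Hyou1 (6), both under BBR, and for Derl3 (5) and Sesn2 (4) in shRNA against Vec. Under BBR, 1 member (Atf4) was higher with the shRNAs with DESeq2, with its size factors, with at least 10 counts in every sample, with only the 2 groups and with mitochondrial genes left out (chosen after seeing the data), against 0. DESeq2 called 334 genes for the difference between the BBR effects, against 18, and 3 members lower. Members lower in Vec+BBR numbered 1, against 2, with no filter, with the replicate block and with only the 2 groups. With only the 2 groups, 1178 genes and 3 higher members were called for Vec+BBR against Vec, and 2 higher members for shRNA against Vec.

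Leaving out 1 mouse gave 1237 to 2395 genes for Vec+BBR against Vec, with 3 to 7 members higher and 1 to 2 lower. For shRNA+BBR against shRNA it gave 661 (without shRNA+BBR 3) to 2527 genes and 1 to 5 members lower. For shRNA against Vec it gave 1015 to 2284 genes, with 1 to 3 members higher and 4 to 6 lower. For shRNA+BBR against Vec+BBR it gave 538 (without shRNA+BBR 2) to 1217 genes, with 0 to 1 higher and 3 to 8 lower. For the difference it gave 5 to 122 genes and 0 to 1 members lower.

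The replicate numbers showed no steady pairing of the mice. Deviations correlated over 0.1 in 1 of 5 numbers between Vec and Vec+BBR, 3 of 5 between shRNA and shRNA+BBR and 0 of 5 in both other pairs. In the same order, 1, 2, 0 and 1 of 5 livers matched their own number best. With 5 numbers per pair of groups, this check cannot exclude a cage or batch shared by number. With the replicate block, 0 members passed for the difference, where Creb3l2 had an adjusted p of 0.0692 (edgeR). Depth limits Derl3 and Asns, which lay near the limit of 3 counts in some livers.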
